A study of Mus musculus with 12 samples.

Results

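The Bcl2 family and the caspases decide whether a cell with damaged or stressed mitochondria dies by apoptosis. Guardians such as Bcl2, Bcl2l1 (Bcl-xL) and Mcl1 hold the effectors Bak1 and Bax in check, and BH3-only proteins such as Bid and Bcl2l11 (Bim) relieve that restraint or activate the effectors. Open pores release cytochrome c, which drives Apaf1 to build the apoptosome and activate Casp9, whereas Casp8 acts below the death receptors and cleaves Bid to link the receptors to the mitochondria. Copies of these genes are gained or lost in many tumors, and MCL1 and BCL2L1 are well-known targets of amplification in human cancer.

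Copy number of 9 genes of this machinery was read in the DNA of a pair of murine pancreatic ductal adenocarcinoma (PDAC) lines. The genes were taken from a fixed list of names, Bcl2, Bcl2l1, Mcl1, Bak1, Bid, Bcl2l11, Apaf1, Casp9 and Casp8, and each was found by name among the 22035 gene names of the copy-number tables. All 9 were found, each in 1 segment per line.

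Genomic DNA of 15376T and 14837T was captured and sequenced by whole-exome sequencing (WES), and each line is present as 1 library (WES-15376T and WES-14837T in the labels, 15376T and 14837T here). Both are primary lines from C57BL/6 mice that carried p48-Cre, a tetO-driven oncogene transgene behind a Lox-Stop-Lox cassette, ROSA26-LSL-rtTA-IRES-GFP and a floxed Trp53 allele over a wild-type one, and the cells were kept in doxycycline. The labels give the genotype of both as WT, that is, without the Lin28b knockout made elsewhere in the study. Cre is driven by the p48 (Ptf1a) promoter of pancreatic cells, each line is 1 line of primary tumor cells, and the age of the mice is not given in the sources used here. DNA carries no cell type markers, so the label PDAC could not be checked. The capture kit was designed for human exons (the labels and the methods name different kits), and the tail DNA was not analysed here.

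The deposited tables cut each genome into segments, runs of neighboring bins with a common coverage. For a segment the tables give its coverage against a reference as a log2 ratio, a copy number in whole copies, a mean read depth and a number of bins. Where variants were found they also give a B-allele fraction (BAF), which is the part of the reads that differs from the reference genome at variant sites. A gene has no ratio of its own and takes that of its segment, and whether both lines were set against the same reference is not given in the sources used here. Segments with 2 copies lay between a log2 of -0.22 and 0.18 in 15376T and between -0.24 and 0.19 in 14837T, so the calls change near -0.25 and 0.2. Their SD, 0.090 in 15376T (103 autosomal segments) and 0.095 in 14837T (96 segments), served as the spread of a segment, since neither line had a replicate and no test was possible. Being limited to segments between these thresholds, it is a lower estimate. The mean depth over autosomal bins was 43.4 and 47.5.

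Of the 9 genes, 4 were called at 2 copies in both lines (Bcl2, Bcl2l1, Bcl2l11 and Casp8), 1 was gained in both (Mcl1), 1 was lost in both (Casp9) and 3 had a different call in the lines (Bid, Bak1 and Apaf1). Among 21134 autosomal gene names, 41.4% were at 2 copies in both lines, 6.92% were gained in both, 22.4% were lost in both and 29.4% had a different call. In 15376T the gained genes were Mcl1 and Bid, 2 of 9, beside 9.18% of all autosomal genes, and the lost gene was Casp9, 1 of 9, beside 30.0%. In 14837T the gained genes were Mcl1 and Bak1, 2 of 9, beside 21.5%, and the lost genes were Apaf1 and Casp9, 2 of 9, beside 28.8%. With so few genes these counts describe the 9 and were not tested against the background. The median log2 of the 9 was 0.019 in 15376T and -0.048 in 14837T, where all autosomal genes had a median of -0.023 and -0.045. No gene of the 9 had opposite calls (a gain in 1 line and a loss in the other), and over all 21134 autosomal genes 334 had them. Counted from an absolute log2 of 0.5 instead, Mcl1 remained as the only gain in each line (1 of 9 in 15376T beside 2.55% of autosomal genes, 1 of 9 in 14837T beside 4.30%, and 1 of 9 in both beside 1.24%). Casp9 remained as the loss of 15376T (1 of 9 beside 27.8%) and none of the 9 was then lost in 14837T (3.09%) or in both lines (1.95%), so 1 of 9 differed between the lines (31.3%) and 7 of 9 lay between these levels in both (65.5%).

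**Figure D1:**
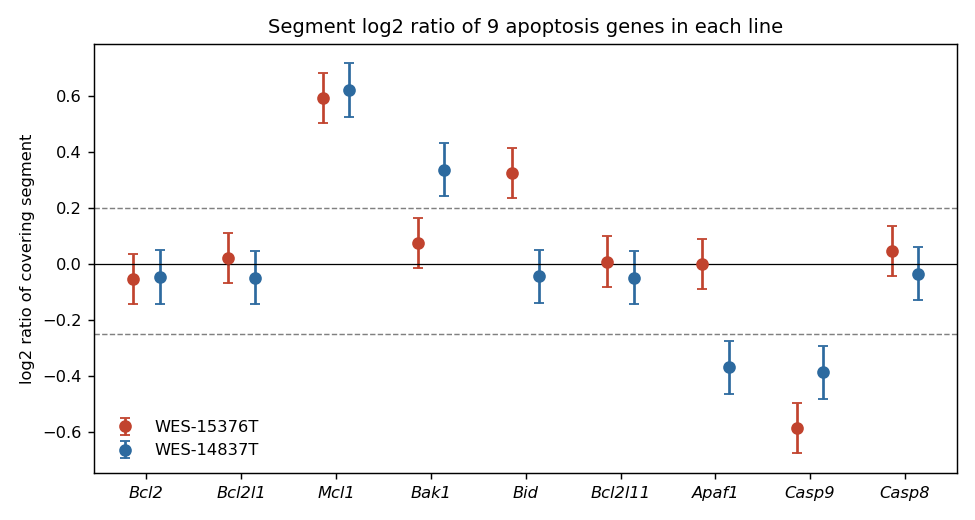
Log2 ratio of the covering segment (y axis) for the 9 genes (x axis) in 15376T (red) and 14837T (blue). Bars are the SD of autosomal segments called at 2 copies, 0.090 and 0.095, and dashed lines mark the levels of -0.25 and 0.2 near which calls change. Mcl1 lies highest in both lines at 0.59 and 0.62, Casp9 lies lowest at -0.59 and -0.39, and Bak1, Bid and Apaf1 each cross a dashed line in 1 line only.

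Among the guardians, Mcl1 was the only one of 3 with a changed copy number, and it was gained by nearly the same amount in both lines. Mcl1 encodes a short-lived protein that binds Bak1 and Bcl2l11. The gene lies on chromosome 3 from 95656944 to 95663179 (GRCm38). Its segment had a log2 of 0.59 in 15376T and 0.62 in 14837T, and each was called at 3 copies. Both values lay more than 6 SD above 0, at 6.59 and 6.51 SD. A gain of 1 copy on 2 in every cell would give a log2 of 0.58. Autosomal segments called at 3 copies had a median log2 of only 0.44 in 15376T and 0.34 in 14837T. Mcl1 thus lay above the usual level of such a call in each line, and its nearness to 0.58 does not settle its number of copies. In all, 1.81% of autosomal genes in 15376T and 2.00% in 14837T had a log2 at or above that of Mcl1. The lines differed by -0.028, less than the SD of 0.074 that this difference had over the 8740 autosomal genes at 2 copies in both lines. The mean of this difference over those genes was 0.036 and was not subtracted. Genes of a segment share a value, and the genes were limited to calls of 2 copies. This SD, used for the other genes too, is thus a description and a lower estimate.

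The gain of Mcl1 had a different extent in the lines. In 15376T the segment ran from 94774189 to 96705161, a stretch of 1.93 Mb with 596 bins that held 74 other gene names. In 14837T it ran from 85871628 to 96875734, a stretch of 11.0 Mb with 2203 bins and 282 other names. Mcl1 lay 0.883 Mb from the left border in 15376T and 9.79 Mb from it in 14837T, whereas the right border was near in both lines, at 1.04 and 1.21 Mb. To the left, the next segment of 15376T (7.34 Mb) was called at 2 copies with a log2 of 0.097, a step of 0.50. The left neighbor in 14837T, farther away, was itself gained at 0.38. To the right, both lines stayed gained, at 0.41 in 15376T and 0.45 in 14837T. The segment of Mcl1 had rank 5 from the highest of the 24 segments of chromosome 3 in 15376T and rank 7 of 19 in 14837T, so it was the top in neither line. Of the length of chromosome 3, 82.0% was gained in 15376T and 99.0% in 14837T, and the gain of Mcl1 lies within that of the chromosome.

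Mcl1 is also the only 1 of the 9 with a depth of its own in both lines, because the gene tables list only genes from an absolute log2 of 0.40. Over 4 bins from 95658853 to 95660884 its depth was 56.9 in 15376T and 64.7 in 14837T. Against the median depth of segments called at 2 copies, 44.9 and 47.0, this was 0.34 and 0.46 higher on the log2 scale. The other genes of its segment had a median depth of 78.9 (74 genes) and 81.5 (282 genes), so Mcl1 was covered less deeply than most of its neighbors, and 14.9% and 23.8% of them lay below it. The distance from that median was -0.47 and -0.33 on the log2 scale, where the neighbors had an SD of 0.43 and 0.49. The ratio of the gene's own depths, each over the median of segments at 2 copies, was -0.12 on the log2 scale (15376T over 14837T). This ratio scattered around the difference of the segments with an SD of 0.26 over 1660 genes listed in both lines with up to 5 bins, and the own depth of Mcl1 therefore gave no difference between the lines beyond that spread. In 14837T the 74 genes inside the borders that 15376T has around Mcl1 had a mean depth of 87.1 over 579 bins, and the 201 genes to the left of them had 82.0 over 1489 bins. The step at the left border in 15376T, by contrast, was from a segment depth of 49.7 to one of 74.8. This last comparison was chosen after the values were seen.

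Bcl2 and Bcl2l1, the guardians that BH3-mimetic drugs were first aimed at, were called at 2 copies in each line. Bcl2 lies on chromosome 1 from 106538176 to 106714290. The log2 of its segment was -0.055 in 15376T (578 bins) and -0.048 in 14837T (3248 bins), and the lines differed by -0.0074 in log2. Read from the depths of the segments instead, each over the median of segments with 2 copies, the difference was -0.27, and these segments differ in length. The segments end at the same base, 117675170, but start at 95313793 in 15376T and at 69924467 in 14837T. The depth of the Bcl2 segment was 35.2 in 15376T, 0.35 below that of segments at 2 copies on the log2 scale, although the log2 ratio to the reference was within 1 SD of 0.

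Bcl2l1 lies on chromosome 2 from 152758732 to 152833803, with a log2 of 0.019 in 15376T (1556 bins) and -0.049 in 14837T (8567 bins). It lay 0.61 Mb inside a border in 15376T, across which the log2 changed by 0.091. That step is about as large as the SD of segments at 2 copies, and both sides were called at 2 copies.

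Of the effectors, Bak1, which forms pores in the outer membrane of mitochondria together with or in place of Bax, was gained in 14837T and unchanged at 2 copies in 15376T. Bak1 lies on chromosome 17 from 27019812 to 27028627. The log2 of its segment was 0.074 in 15376T (4453 bins) and 0.34 in 14837T (3475 bins). The difference of -0.26 was -3.53 times its SD over genes at 2 copies, and 27.1% of autosomal genes differed by at least as much. Both segments start at 17064101. The segment ends at 34718577 in 14837T, 7.69 Mb beyond Bak1, and at 40880570 in 15376T. The ratio of the depths of the segments, each over the median of segments with 2 copies, was -0.27 on the log2 scale. This is near the difference in log2, but both are read from the same coverage, so it is no separate check. The segments also differ in length, 23.8 Mb in 15376T and 17.7 Mb in 14837T. The gain of Bak1 is not a local one, since the flanking segments in 14837T were gained at 0.23 and 0.43, and 84.1% of chromosome 17 was gained in that line against 0% in 15376T.

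Bid, the BH3-only protein that Casp8 cleaves, was gained in 15376T and at 2 copies in 14837T. Bid lies on chromosome 6 from 120893119 to 120917062. The log2 of its segment was 0.33 in 15376T (1647 bins) and -0.045 in 14837T (9981 bins). The difference of 0.37 was 4.99 times its SD over genes at 2 copies, and 16.2% of autosomal genes differed by at least as much. The segment of 15376T began at 120208852, 0.684 Mb to the left of Bid, with a step of 0.30 from a segment at 2 copies (log2 0.022). It ended at 130380665, as did the segment in 14837T, which began at 3372513 and was 127 Mb long. On the right, the gain went on in 15376T at 0.29, while 14837T had -0.17 there. The ratio of the depths of the segments was 0.49 on the log2 scale. That ratio sets a segment of 10.2 Mb against one of 127 Mb.

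Bid also stood apart from the other 8 genes by its BAF. The BAF of its segment was 0.74 in 15376T and 0.40 in 14837T, whereas the autosomal median (by length) was 0.077 and 0.061. The authors split the copies of Bid as 2 and 1 in 15376T and as 1 and 1 in 14837T, and gave no second allele at the other 8 genes. A low BAF was the usual state of both lines, as the autosomal medians show. It means that few reads differed from the reference genome, so the split at these 8 genes does not show the loss of an allele. In 15376T, 8 of the 158 autosomal segments with a BAF reached at least 0.74, and 5 of these lay on chromosome 6, from 87158067 onwards. The left neighbor of the Bid segment had a BAF of 0.82, and the right neighbor had 0.038. Next to Bid, the highest values were 0.21 for the long segment of chromosome 2 in 14837T that holds both Bcl2l1 and Bcl2l11, and 0.15 for Apaf1 in 14837T. The remaining values ran from 0.028 (Mcl1 in 15376T) to 0.091 (Bcl2l11 in 15376T). The number of variants behind a BAF is not part of the tables, so its precision is unknown.

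**Figure D2:**
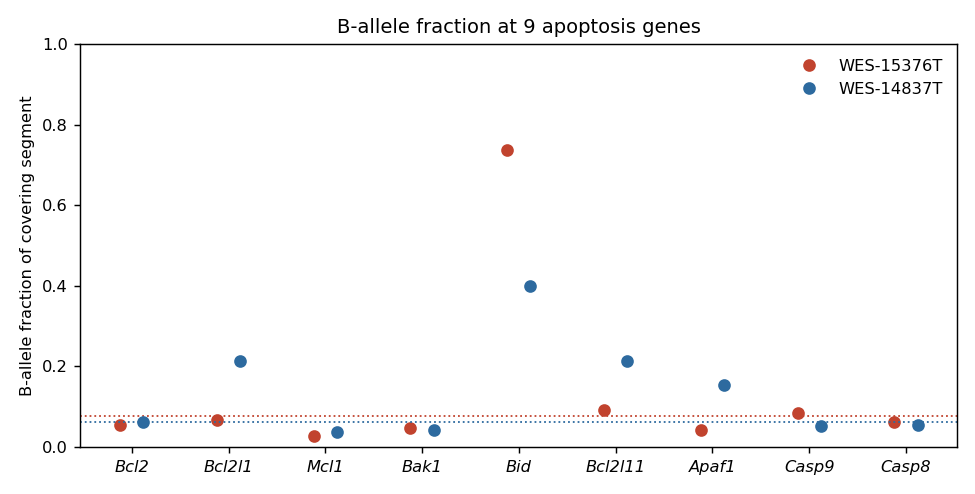
B-allele fraction of the covering segment (y axis, 0 to 1) for the 9 genes (x axis) in 15376T (red) and 14837T (blue), with the autosomal medians of 0.077 and 0.061 as dotted lines in the same colors. Bid stands apart at 0.74 and 0.40, and the other genes lie at 0.21 or below.

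Bcl2l11, the other BH3-only gene of the 9, encodes Bim, a partner of all 3 guardians. It lies on chromosome 2 from 128126038 to 128162547. The log2 of its segment was 0.0081 in 15376T (3387 bins) and -0.049 in 14837T (8567 bins), and each was called at 2 copies. In 14837T a segment from 78119163 to 161216407 covers both Bcl2l11 and Bcl2l1, so they share 1 value there and are not independent. The left neighbor of this long segment, far from both genes, was a segment of 0.0553 Mb with 20 bins at a log2 of 3.62, called at 25 copies. In 15376T they lie in different segments, which differed by 0.011, well within the SD.

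The apoptosome genes Apaf1 and Casp9 were both lost in 14837T, and Casp9 alone was lost in 15376T. Apaf1, the scaffold that binds cytochrome c, lies on chromosome 10 from 90989311 to 91082743. The log2 of its segment was -0.00033 in 15376T (848 bins) and -0.37 in 14837T (660 bins), called at 2 copies and 1 copy. The difference of 0.37 was 4.98 times its SD over genes at 2 copies, and 16.5% of autosomal genes differed by at least as much. The ratio of the segments' own depths, 45.8 and 37.1, was 0.37 on the log2 scale after each was set over its median at 2 copies. The segment of 14837T ran from 89068785 to 100461153 and was the shallowest of 3 neighboring losses, with -0.57 to its left and -0.58 to its right. In 15376T the left neighbor was at 2 copies (-0.14), and a short loss of 1.75 Mb at -0.40 began 14.1 Mb to the right of Apaf1. Of the length of chromosome 10, 41.3% was lost in 14837T and 1.38% in 15376T.

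Casp9, the initiator caspase that the apoptosome activates, lies on chromosome 4 from 141793612 to 141815978. The log2 of its segment was -0.59 in 15376T (11970 bins) and -0.39 in 14837T (8203 bins), both called at 1 copy. In units of the SD these values were -6.54 and -4.07, and 10.7% and 18.9% of autosomal genes lay at or below them. Were 1 of 2 copies missing from each cell, the log2 would be -1. Autosomal segments called at 1 copy had a median log2 of -0.52 in 15376T and -0.39 in 14837T, so Casp9 lay near the usual level of a loss in each line. The difference of -0.20 was -2.69 times its SD over genes at 2 copies, and 37.9% of autosomal genes differed by at least as much. Both segments end at 146117266, 4.30 Mb beyond Casp9. In 15376T the segment began at 3173523 and spanned 143 Mb, and every segment of chromosome 4 was lost. In 14837T it began at 63235266 and spanned 82.9 Mb, next to a segment at 2 copies (-0.091), and 72.3% of the chromosome was lost.

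Casp9 is listed with a depth of its own in 15376T only, since -0.39 falls short of the level at which genes are listed. Over 10 bins from 141793800 to 141815105 its depth was 37.9. The 1160 other genes of the segment had a median of 33.4, with quartiles of 25.9 and 41.7. Casp9 thus lay between the quartiles of its segment, 0.18 above the median on the log2 scale. Among the 147 genes within 5 Mb, Casp9 lay higher, 0.34 above their median and just above their upper quartile of 37.2. Against segments called at 2 copies its depth was -0.24 on the log2 scale, where the depth of the whole segment was -0.59. The depths of the other genes had an SD of 0.59 on that scale in the segment and 0.62 within 5 Mb. The distances of Casp9 lie within this spread, so its own depth does not show a smaller loss at the gene.

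Casp8, the initiator caspase of the death receptors, was called at 2 copies in each line. It lies on chromosome 1 from 58795233 to 58847503, with a log2 of 0.045 in 15376T (1675 bins) and -0.035 in 14837T (1544 bins). The difference of 0.081 was 1.09 times its SD. In 14837T the segment from 47137600 to 66322013 lies between a gain at 0.24 on the left and a loss at -0.32 on the right, whose borders are 11.7 and 7.47 Mb away from Casp8. In 15376T both neighbors were at 2 copies.

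**Figure D3:**
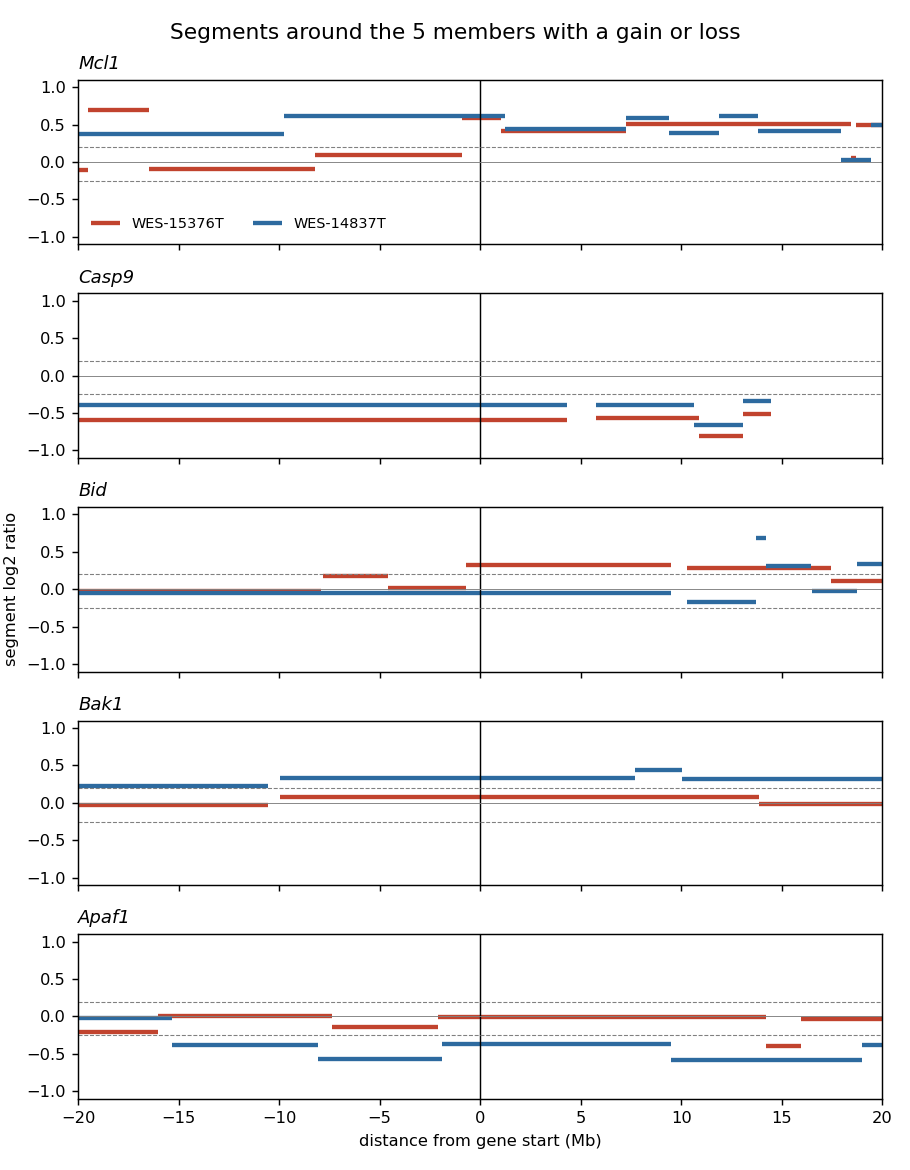
Segment log2 ratio (y axis) against the distance from the start of the gene in Mb (x axis, 20 Mb on each side) for the 5 genes with a gain or loss, in 15376T (red) and 14837T (blue). Each bar is a segment, blanks are stretches with no segment, the vertical line is the gene and dashed lines mark -0.25 and 0.2. The gain of Mcl1 is narrow on its left side in 15376T, that of Bid starts just left of the gene in 15376T, and the changes at Bak1 and Apaf1 in 14837T go on beyond the segment of the gene.

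Ordered by log2, the genes of 15376T ran from Mcl1 (0.59) and Bid (0.33) over Bak1, Casp8, Bcl2l1, Bcl2l11, Apaf1 and Bcl2 (0.074 to -0.055) to Casp9 (-0.59). Those of 14837T ran from Mcl1 (0.62) and Bak1 (0.34) over Casp8, Bid, Bcl2, Bcl2l1 and Bcl2l11 (-0.035 to -0.049) to Apaf1 (-0.37) and Casp9 (-0.39). In each line, 3 of the 8 gaps between neighbors in this order were larger than the SD of segments at 2 copies. Neighbors within the middle 6 genes of 15376T and the middle 5 of 14837T did not differ beyond it, nor did Apaf1 and Casp9 in 14837T.

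The rest of the pathway was read from a list of 50 other apoptosis genes, of which 48 were named in the tables and 46 are autosomal. In 15376T 8 of the 46 were gained and 12 lost, where 9.18% and 30.0% of all autosomal genes were. In 14837T 12 were gained and 12 lost, beside 21.5% and 28.8%. Gains in both lines numbered 4 (6.92% of all autosomal genes), losses in both 10 (22.4%) and different calls 16 (29.4%), and none had opposite calls. These counts were not tested against the background. The median log2 was -0.029 and -0.040, close to the medians of all autosomal genes given above. Several of these genes share a segment with a member. Bcl2l13 and Tnfrsf1a have the values of Bid, Cflar those of Casp8 and Bmf those of Bcl2l11, in both lines.

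Among the partners nearest to Mcl1, the guardians Bcl2l2 (Bcl-w) and Bcl2l10 were lost in 15376T at -0.55 and -0.53. Bcl2l2 was also lost in 14837T at -0.31, where Bcl2l10 was at 2 copies (-0.029). Bax, the effector beside Bak1, was lost in 15376T at -0.53. In 14837T it was called at 2 copies with a log2 of -0.24, just short of a loss, and both Bak1 and Bax thus had the higher log2 in 14837T. Bok, the third effector, was at 2 copies in both, at 0.031 and -0.048. Of 5 BH3-only genes in the tables, Bad was gained in both lines (0.42 and 0.50), Pmaip1 (Noxa, a partner of Mcl1) was lost in both (-0.56 and -0.44), and Bik was at 2 copies in 15376T (-0.043) and gained in 14837T (0.31).

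Of 6 other Bcl2-like genes, 3 were lost in both lines, beside 22.4% of all autosomal genes. The lowest by the mean of the lines was Bnip3, a receptor in mitophagy, at -0.53 and -0.48. In 15376T Bax, Bnip3 and Fadd take their value from 1 segment of chromosome 7. Bcl2l15, on chromosome 3 as is Mcl1, was gained in both at 0.51 and 0.60. Bcl2l14, beyond the right border of the Bid segment, was gained in 15376T at 0.29 and at 2 copies in 14837T at -0.17.

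None of the 8 other caspases was lost in 15376T, where Casp9 and 30.0% of all autosomal genes were. Some of these caspases share a segment. The executioner Casp6 was gained in both lines at 0.49 and 0.50. Casp14 was at 2 copies in 15376T (0.0100) and lost in 14837T (-0.38). Casp12 had -0.10 in 15376T and lies across a border in 14837T, with the larger part in a segment at 0.203 that was called gained.

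None of the 5 autosomal inhibitors of apoptosis, several of which block caspases, was lost. Xiap, on the X chromosome and not counted among the 5, had -0.253 in 15376T, called at 1 copy at the very edge of a loss. In 14837T Xiap was at 2 copies (-0.16). Of all autosomal genes, 30.0% were lost in 15376T and 28.8% in 14837T. Birc2, Birc3 and Casp12 take their value from 1 segment of chromosome 9 in each line. Birc2 and Birc3 (cIAP1 and cIAP2) were at 2 copies in 15376T (-0.10) and called gained in 14837T at 0.203, at the very edge of a gain, and Birc6 went from 0.0056 to 0.28. Birc7 was the lowest of the group by the mean of the lines, at -0.090 and -0.069. All 5 autosomal mitochondrial factors were at 2 copies in both lines, beside 41.4% of all autosomal genes, and some of the 5 share a segment in 14837T. By the mean of the lines they ran from Endog (-0.017 and -0.060) to Diablo (0.11 and 0.047). In the death receptor arm, the ligand Tnfsf10 (TRAIL) was gained in both lines at 0.74 (4 copies) and 0.43. Fadd, an adaptor of death receptors, was lost in both at -0.53 and -0.44. Fas and Tnf were at 2 copies in 15376T (-0.030 and 0.074) and gained in 14837T (0.36 and 0.43), Tnfrsf1a was gained in 15376T only (0.33 and -0.045), and Ripk1 was lost in 14837T only (-0.036 and -0.47). Of the execution genes, Dffb, the nuclease that cuts DNA in apoptosis, was the lowest of the 46 in both lines, at -0.81 and -0.66. It lies on chromosome 4 as does Casp9. Parp1, a substrate of executioner caspases, was at 2 copies in both, at -0.029 and 0.019.

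**Figure D4:**
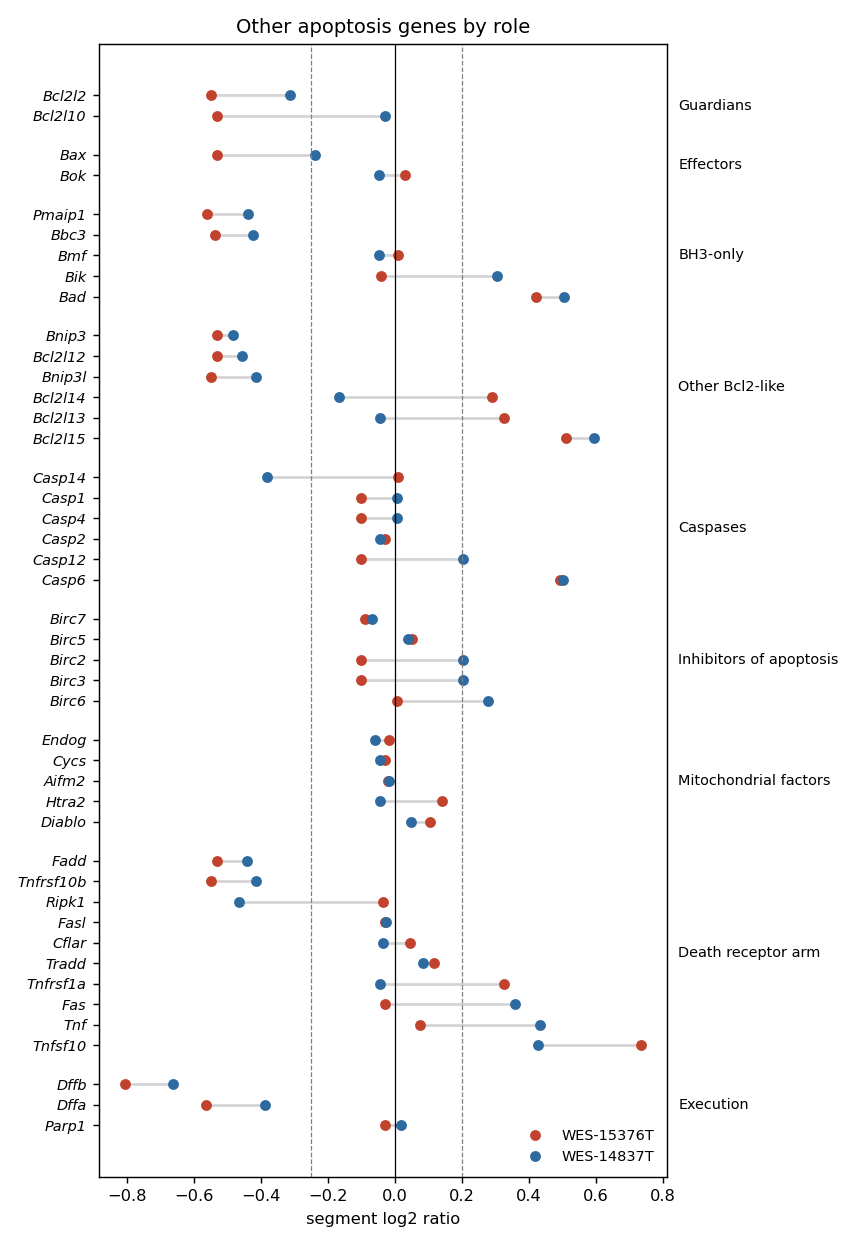
Segment log2 ratio (x axis) of 44 of the 46 other autosomal apoptosis genes (y axis, grouped by role and ordered by the mean of the lines) in 15376T (red) and 14837T (blue), with lines joining the values of a gene and dashed lines at -0.25 and 0.2. Bcl2l10 has the longest line, from -0.53 to -0.029, and Dffb lies lowest in both lines, at -0.81 and -0.66.

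**Figure D5:**
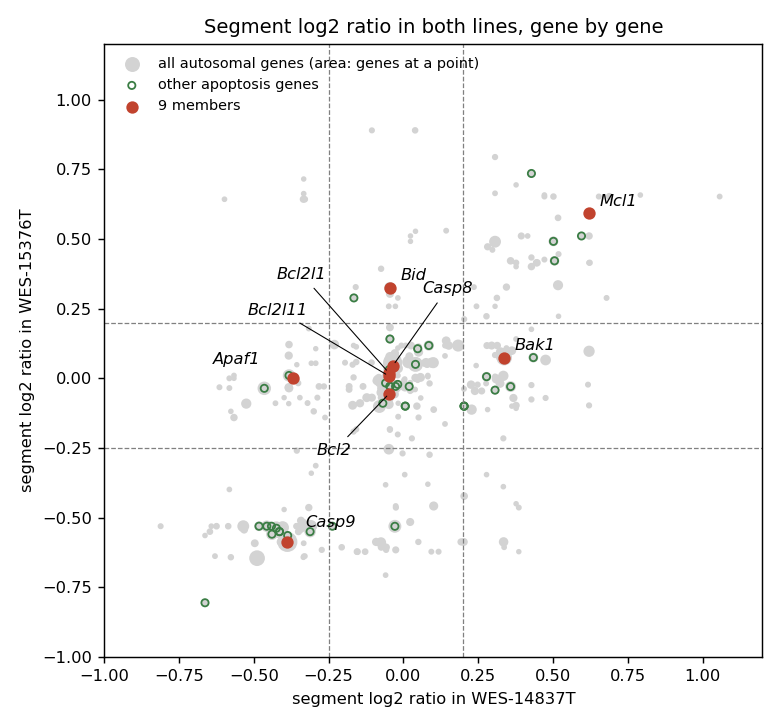
Segment log2 ratio in 14837T (x axis) and 15376T (y axis) for 21118 autosomal genes (grey, area by the number of genes at a point, with 16 genes outside the axes not shown), 44 of the 46 list genes (green rings) and the 9 members (red, named). Mcl1 lies in the corner gained in both lines, Casp9 in the corner lost in both, and Bid, Bak1 and Apaf1 beyond the dashed lines of -0.25 and 0.2 on 1 axis only.

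Across both lines, the list gene on another chromosome with the pair of log2 values nearest to a changed member was sought by Euclidean distance. For Casp9 it was Bnip3l at a distance of 0.045 (44 candidates), tied with Tnfrsf10b, which has the same segments of chromosome 14. For Apaf1 it was Ripk1 at 0.10, for Bak1 it was Fas at 0.11, for Mcl1 it was Bad at 0.21, and for Bid it was Diablo at 0.24. The last is no close match, since Diablo was at 2 copies in both lines. Each pair of values rests on 2 libraries.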

How the data were processed

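DNA of 15376T and 14837T was sequenced by WES, 1 library per line; the RNA-seq samples and the tail DNA were not analysed here. Per the labels the build is mm10 (GRCm38), while aligner, caller and copy-number reference are not given in the sources used here. The log2 deposited by the authors is a ratio of coverage to that reference. The BAF deposited by the authors is a fraction. The read depth deposited by the authors is raw coverage. The weights deposited by the authors are a score left unused here. Copy numbers are the calls the authors made.

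Each gene was given the segment that names it; of 22035 names, those in several segments (89 in 15376T, 128 in 14837T) went to the segment with most of their RefSeq span on GRCm38.p6, and 3 per line with no such span were dropped. More than 2 copies was counted as gained and fewer as lost. The share of genes called covers 21134 autosomal names. Starts count from 1. Gene positions are those of RefSeq. List genes named in the text are the highest and lowest of each role by mean log2 and those with a different call in the lines, though some that the rule picks, and 1 transgene, are not reported here; those singled out otherwise (Bnip3l, Tnfrsf1a, Cflar and Bmf for shared or near values) follow the likeness rule or share a segment. Members and lists were chosen with earlier results of these data known. Alternatives tried were call levels of 0.3 and 0.5 in absolute log2, recentred log2, ratios of depths, other gene sets and filters on bins. Python 3.11.15, numpy 2.4.6, pandas 2.3.3 and matplotlib 3.10.9 were used, and the steps were tested on simulated data. The tables hold no read counts and no spread between bins, so values have no interval.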

Additional observations from a re-analysis of the deposited data

How the results depend on the processing

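With calls from an absolute log2 of 0.5, 4 calls of members were lost, those of Bid in 15376T (0.33) and of Bak1 (0.34), Apaf1 (-0.37) and Casp9 (-0.39) in 14837T, while Mcl1 in both lines and Casp9 in 15376T kept theirs. At an absolute log2 of 0.3, or with log2 recentred on the autosomal median, none of the 18 calls of members changed. At 0.5, the share of autosomal genes was 2.55% gained in 15376T, 4.30% gained and 3.09% lost in 14837T, 1.24% gained and 1.95% lost in both, and 65.5% between these levels in both. Of the 46 list genes, 3 were then gained in 15376T, 3 gained and 1 lost in 14837T, 1 gained and 1 lost in both, and 29 between these levels in both. A higher threshold makes fewer calls by construction. The shares of genes moved little with all chromosomes or names with 1 RefSeq position, as did the SD of segments with at least 100 bins.

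Of the differences between the lines, 3 moved by more than 0.074 when read from depths. That level is the SD of the log2 difference over genes at 2 copies in both lines. The ratio of segment depths was -0.27 for Bcl2 (-0.0074 from log2) and 0.49 for Bid (0.37), where the segments of the lines differ in length, and the ratio of own depths was -0.12 for Mcl1 (-0.028). Ratios of own depths had a larger SD of 0.26 around the segment difference in genes with up to 5 bins, and the move of Mcl1 lies within it. The cause of these moves was not tested. A ratio of own depths could not be had for the other 8 genes, which are not listed in both lines. The own depths of Mcl1 and Casp9 within their segments moved by less than the SD of the neighbors.

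No paired analysis was possible because there is 1 library for a line, with no test run. A change confined to a few exons could not be seen, since 7 of the 9 genes have no value of their own.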
